A study of Homo sapiens with 38 samples.

Results

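The genes described here encode the ESCRT machinery (endosomal sorting complexes required for transport) and its direct partners, with VPS4A and VPS4B themselves left out. The members were chosen by symbol from a written list, after the RefSeq identifiers of the deposited table had been matched to symbols. All 37 of the 37 listed genes were present among the 12627 genes of the table. They comprised 6 genes of ESCRT-0 and other ubiquitin adaptors, 8 of ESCRT-I, 3 of ESCRT-II, 12 of ESCRT-III and 8 accessory genes.

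ESCRT subunits gather ubiquitinated membrane proteins on endosomes and cut the necks of membrane buds that point away from the cytoplasm. The early complexes recognise cargo, ESCRT-II links them to ESCRT-III, and ESCRT-III subunits polymerise into filaments at the neck. VPS4 ATPases take these filaments apart and recycle their subunits, and the same filaments act in cytokinetic abscission, nuclear envelope sealing and membrane repair.

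RNA was measured in HCT116 cells, an established human colorectal carcinoma line, 72 h after transfection with short interfering RNA (siRNA). The 38 libraries covered 9 conditions and were labelled as biological replicates, 4 per condition except siCTRL#1 and siVPS4A#1, which had 5. NT cells were not transfected, siCTRL#1 cells received 60 nM of a non-targeting duplex, and siCTRL#2 is a second non-targeting duplex, for which the methods give a range over all experiments but no value for these libraries. Single silencing (siVPS4A#1, siVPS4A#2, siVPS4B#1 or siVPS4B#2) used 30 nM of the targeting duplex with 30 nM of siCTRL#1. Combined silencing used 30 nM of each of 2 targeting duplexes, siVPS4A#2 with siVPS4B#1 in siVPS4A+B#1 and siVPS4A#1 with siVPS4B#2 in siVPS4A+B#2. The combined conditions therefore hold no control duplex, and each shares its duplexes with a pair of single conditions.

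Levels are given as reads per 1000000 reads of the listed genes, scaled between libraries by TMM factors (rpm), as mean ± SD. Each gene was read through a panel amplicon, so levels were compared between conditions and not between genes. Library totals ranged from 669257 to 11035293 reads, and 37 libraries held at least 5090666. The library with 669257 reads, siVPS4A#1 replicate 2, also held 7 reads of VPS4A and 1 of VPS4B, although its label names VPS4A only, and was left out unless stated. Every member was detected in all 37 libraries used, with 29 reads or more. VPS4A averaged 249 ± 55 rpm in NT and 190 ± 14 in siCTRL#1, against 2.18 ± 0.9 with siVPS4A#1, 7.88 ± 2.2 with siVPS4A#2, 20 ± 11 with siVPS4A+B#1 and 5.03 ± 2 with siVPS4A+B#2. VPS4B averaged 20.7 ± 3.5 rpm in siCTRL#1 and at most 1.28 rpm in the 4 conditions that target it, where its libraries held 1 to 16 reads with a median of 7. The epithelial markers EPCAM and KRT8 averaged 609 and 1127 rpm in NT, and the endothelial marker PECAM1 averaged 0.652 rpm. The fibroblast marker COL1A1, the other gene of that list in the table, averaged 12.4 ± 3.1 rpm in NT, 26.0 ± 6.5 in siCTRL#1, 47.0 ± 13.7 with siVPS4A#1, 32.8 ± 8.1 with siVPS4A+B#1 and 62.6 ± 15.6 with siVPS4A+B#2 (SD). Against siCTRL#1 it rose with siVPS4A#1 and siVPS4A+B#2, by 0.84 ± 0.21 and 1.33 ± 0.22 on the log2 scale (SE; limma, Benjamini-Hochberg adjusted p = 0.0015 and 2.86e-06), and its part in the results on these conditions was not tested.

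The promoters of CHMP1B and CEP55, the members that changed in every comparison of combined silencing, and of VPS37B, the member with an interaction in both pairs, are shown first. Each sequence runs 5′ to 3′ on the strand of the gene, from 250 bases before to 50 bases after the RefSeq start site, in GRCh38.p14. CHMP1B is on the plus strand at chr18:11851163-11851462, CEP55 on the plus strand at chr10:93496362-93496661 and VPS37B on the minus strand at chr12:122896075-122896374. Capitals mark matches, on either strand, to the cyclic AMP response element (CRE, TGACGTCA), the cell cycle homology region (CHR, TTTGAA), the CCAAT box (CCAAT) and the E-box (CACGTG).
CHMP1B: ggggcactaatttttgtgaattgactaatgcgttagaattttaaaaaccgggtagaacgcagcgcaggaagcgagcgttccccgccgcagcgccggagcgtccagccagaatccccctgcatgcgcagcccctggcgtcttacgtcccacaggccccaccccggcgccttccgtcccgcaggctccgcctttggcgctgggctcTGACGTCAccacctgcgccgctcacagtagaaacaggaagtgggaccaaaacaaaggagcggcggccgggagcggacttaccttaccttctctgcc
CEP55: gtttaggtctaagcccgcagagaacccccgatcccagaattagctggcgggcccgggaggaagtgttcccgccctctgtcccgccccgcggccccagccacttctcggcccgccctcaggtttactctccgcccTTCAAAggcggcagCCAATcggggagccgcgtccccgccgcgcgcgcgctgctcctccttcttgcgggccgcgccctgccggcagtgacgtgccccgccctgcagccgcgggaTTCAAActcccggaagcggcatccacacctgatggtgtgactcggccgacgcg
VPS37B: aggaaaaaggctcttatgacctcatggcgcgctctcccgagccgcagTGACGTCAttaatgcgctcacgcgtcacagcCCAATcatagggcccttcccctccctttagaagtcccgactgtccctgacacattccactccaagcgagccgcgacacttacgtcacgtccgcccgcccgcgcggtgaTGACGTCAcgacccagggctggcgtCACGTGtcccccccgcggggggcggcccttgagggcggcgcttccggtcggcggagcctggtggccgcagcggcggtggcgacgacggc

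The RefSeq table held such a window for 29 of the 37 members and for 10206 genes of the deposited table. A CRE was found in 3 of the 29 members, CHMP1B, VPS37B and UBAP1, and in 3.28% of the 10206 windows. The CHMP1B match begins 46 bases before the start site, and VPS37B holds matches that begin 203 and 64 bases before it. A CHR was found in 2 of the 29 members, CEP55 and CHMP2B, and in 9.53% of all windows. CEP55 holds a CHR 116 bases and another 3 bases before its start, with a CCAAT box 102 bases before it. CCAAT boxes were found in 8 of the 29 members and in 37.03% of all windows, E-boxes in 4 and in 10.2%, and the NF-kB motif in 1 and in 2.11%. These matches describe the letters of the windows only.

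Combined silencing raised CHMP1B and lowered CEP55 in each of its 4 comparisons, that is, in both duplex pairs against both NT and siCTRL#1. A call required 2 things of a gene, a change of 1.5-fold or more and a limma p below 0.05 after Benjamini-Hochberg adjustment over all 12627 genes. By this rule 2 of the 37 members were called in all 4 comparisons, against 8.12% of all genes. In single comparisons 5 members were called with siVPS4A+B#1 against NT (26% of all genes), 5 against siCTRL#1 (22.1%), 9 with siVPS4A+B#2 against NT (28.8%) and 9 against siCTRL#1 (28.7%). In none of these comparisons was the share of members called above that of all genes. At any fold, VPS25, CHMP1B, CHMP5 and PTPN23 rose and CEP55 fell in all 4 comparisons at a limma adjusted p under 0.05, 5 of 37 members against 14.3% of all genes.

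The median member lay slightly above 0 in every condition compared with NT or siCTRL#1. The median log2 fold change over the 37 members was 0.30 with siVPS4A+B#1 against NT and 0.18 against siCTRL#1, and 0.18 and 0.21 with siVPS4A+B#2. The corresponding medians over all genes were -0.04, -0.02, -0.03 and -0.02. Against siCTRL#1, 29 members lay above 0 with siVPS4A+B#1 and 23 with siVPS4A+B#2. In the single conditions the median ranged from 0.02 (siVPS4A#2 against siCTRL#1) to 0.16 (siVPS4B#2 against NT), and among the controls it was 0.08 for siCTRL#1 against NT and 0.12 and 0.10 for siCTRL#2 against NT and siCTRL#1. The same reference libraries enter these comparisons, and the differences between the medians were not tested. The RNA came from bulk cultures, in which fewer cells of a kind and less RNA per cell cannot be told apart.

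**Figure D1:**
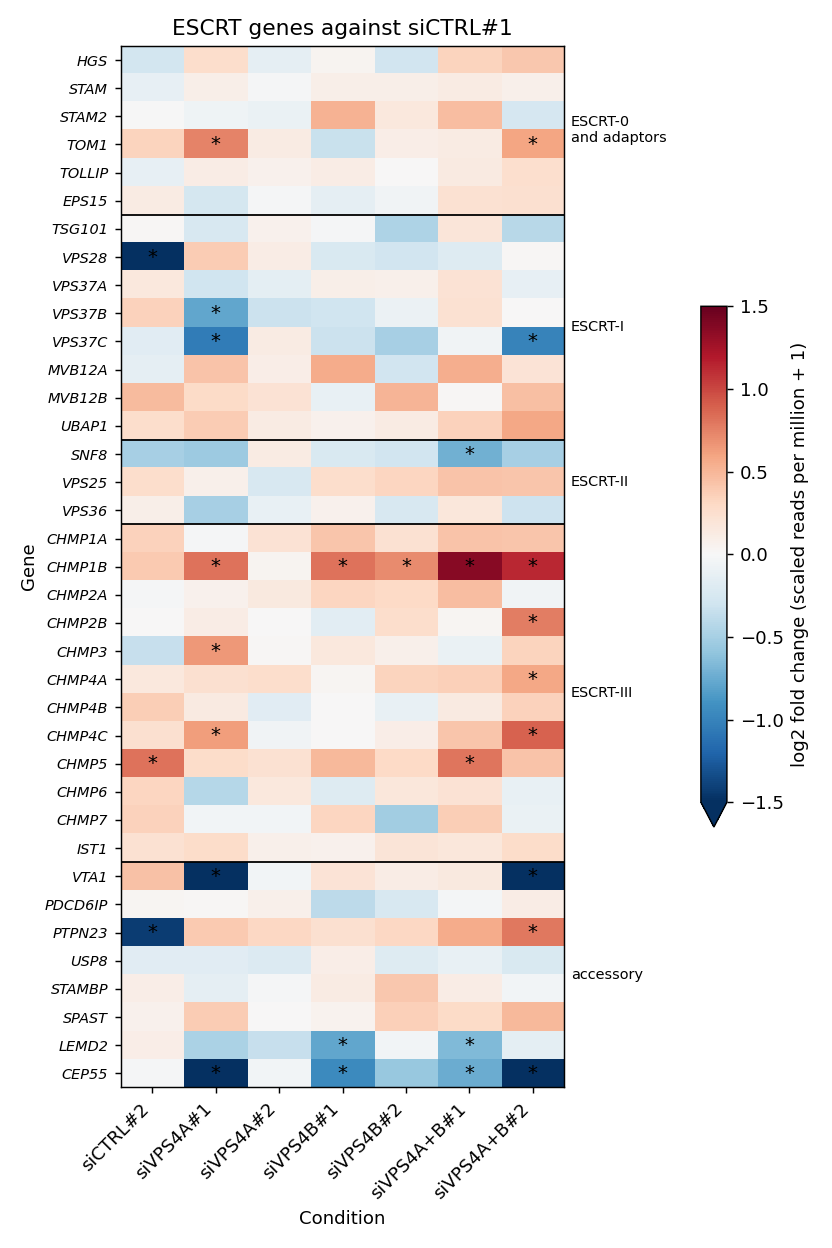
Log2 fold changes of the 37 ESCRT genes (rows, by subcomplex) against siCTRL#1 in 7 conditions (columns), with colours cut at 1.5 in both directions and asterisks at calls. CHMP1B is called in 5 of the conditions, and CEP55, VTA1 and VPS37C are lowest in the conditions that hold siVPS4A#1.

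Among ESCRT-0 genes and adaptors, which bind ubiquitinated cargo, HGS, STAM and EPS15 were not called in any of the 12 comparisons of a targeting condition with NT or siCTRL#1. TOM1, an adaptor that binds ubiquitin and clathrin, measured 41.2, 35.7, 59.9 and 49.5 rpm in the siVPS4A#1 libraries, 23.1 to 31.3 rpm in NT and 20.4 to 31.2 rpm in siCTRL#1. With siVPS4A+B#2 it measured 41.8, 34.4, 42.1 and 44.4 rpm. All libraries used that received siVPS4A#1 thus lay above all NT and siCTRL#1 libraries. With siCTRL#2 TOM1 measured 34.8, 33.5, 28.8 and 37.9 rpm, which overlapped both siVPS4A#1 and siVPS4A+B#2. With siVPS4A#2 it measured 24.2 to 34.4 rpm. The left-out library siVPS4A#1 replicate 2 measured 30.7 rpm, within the NT and siCTRL#1 ranges. The log2 fold change of TOM1 with siVPS4A#1 was 0.67 ± 0.17 (SE) against NT and 0.74 ± 0.15 against siCTRL#1 (limma, Benjamini-Hochberg adjusted p = 0.0013 and 0.00012). The call rested in part on replicate 4, without which the mean of both values was 0.56 and no longer passed. TOLLIP, an adaptor that binds TOM1, had the largest mean change of its group over the 4 combined comparisons, 0.39, and was called only in siVPS4A+B#2 against NT among the 12 comparisons, at a log2 fold change of 0.65 ± 0.15 (limma adjusted p = 0.00047). Its siVPS4A+B#2 libraries measured 29.0 to 35.4 rpm, above the 18.9 to 23.5 rpm of NT and overlapping the 19.2 to 33.7 rpm of siCTRL#1. The TOLLIP mean was 160% of the NT mean with siVPS4A+B#2, 131% with siCTRL#1 and 122% with siCTRL#2. In the single conditions it ranged from 135% (siVPS4B#2) to 146% (siVPS4B#1).

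ESCRT-I is the soluble complex that hands cargo on, and TSG101 is its cargo-binding core. TSG101, VPS37A, MVB12A and MVB12B were not called in the 12 comparisons. TSG101 did differ between the pairs, with 206 ± 15 rpm (SD, n = 4) in siVPS4A+B#1 and 135 ± 3.8 in siVPS4A+B#2, a log2 difference of 0.60 ± 0.14 (limma adjusted p = 0.00082). The single duplexes of siVPS4A+B#2 gave 129 to 186 rpm (siVPS4A#1) and 96.7 to 152 rpm (siVPS4B#2). Those of siVPS4A+B#1 gave 162 to 214 rpm (siVPS4A#2) and 166 to 203 rpm (siVPS4B#1). UBAP1, an alternative subunit devoted to endosomal sorting, had the largest mean change of ESCRT-I, 0.49, and measured 23.9, 23.1, 42.6 and 37.03 rpm with siVPS4A+B#2 against 17.8 to 22.2 in NT. It was called against NT at 0.62 ± 0.17 (limma adjusted p = 0.0023), and the highest siCTRL#1 library, 23.4 rpm, lay within the siVPS4A+B#2 range.

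VPS37C, 1 of the interchangeable VPS37 subunits, was called lower in both conditions with siVPS4A#1 and in neither with siVPS4A#2. It measured 22.2, 16.3, 30.5 and 22.2 rpm with siVPS4A#1 and 25.6, 28.0, 18.1 and 22.6 with siVPS4A+B#2. The NT libraries lay at 38.5 to 58.4 rpm and the siCTRL#1 libraries at 38.1 to 52.7, with no overlap. With siVPS4A#2 the values were 59.3, 51.0, 46.3 and 51.6 rpm, and with siVPS4A+B#1 they were 61.4, 43.96, 36.9 and 44.6. The log2 fold change against siCTRL#1 was -1.05 ± 0.15 with siVPS4A#1 and -1.004 ± 0.15 with siVPS4A+B#2 (limma adjusted p = 3.81e-07 and 1.1e-06). Its mean was 47.8% of the siCTRL#1 mean with siVPS4A#1, 49.4% with siVPS4A+B#2, 109% with siVPS4A#2 and 98.0% with siVPS4A+B#1. With siVPS4B#2, the other duplex of siVPS4A+B#2, it was 71.1% (28.9 to 42.5 rpm), a log2 fold change of -0.50 ± 0.15 (limma adjusted p = 0.026) that did not reach the fold threshold, and with siVPS4B#1 it was 81.0%. The difference between the VPS4A duplexes was -1.17 ± 0.17 (limma adjusted p = 3.25e-07).

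VPS37B, another of these subunits, was the only member whose pair response differed from the sum of the single responses in both pairs. An interaction in both pairs was called for 3.68% of all genes. In the 4 combined comparisons VPS37B was not called and did not pass the limma adjusted p at any fold. Its log2 fold changes in them were 0.0025 to 0.31. It measured 64.5, 59.4, 78.6 and 63.9 rpm with siVPS4A#1, below all NT (94.9 to 142 rpm) and siCTRL#1 libraries (98.9 to 126 rpm). Its log2 fold change there was -0.69 ± 0.16 against NT and -0.78 ± 0.15 against siCTRL#1 (limma adjusted p = 0.00062 and 4.2e-05), and without replicate 1 the mean of both, -0.66, no longer passed. In siVPS4A+B#2, which holds the same duplex, the values were 113, 96.3, 146 and 105 rpm and overlapped both controls. With siVPS4A+B#1 they were 150, 101, 167 and 123 rpm, against 109, 90.0, 90.4 and 75.4 with siVPS4A#2 and 87.8, 92.8, 84.4 and 104 with siVPS4B#1. The pair exceeded the sum of its single effects by 0.85 ± 0.21 in siVPS4A+B#1 and 0.87 ± 0.21 in siVPS4A+B#2 on the log2 scale (limma adjusted p = 0.0096 and 0.0028). Without replicate 3 or without replicate 4 this interaction was no longer called in both pairs. The siCTRL#1 libraries enter both estimates.

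VPS28, the ESCRT-I subunit that binds ESCRT-II, was called lower with the second control duplex against both NT and siCTRL#1, and was not called against both in any targeting condition. It measured 37.1, 39.3, 24.0 and 27.0 rpm with siCTRL#2, below all NT (55.7 to 77.7 rpm) and siCTRL#1 libraries (66.3 to 116 rpm). With siCTRL#2 the log2 fold change was -1.06 ± 0.15 against NT and -1.56 ± 0.15 against siCTRL#1 (limma adjusted p = 6.9e-07 and 9.2e-11).

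In ESCRT-II, which bridges to ESCRT-III, VPS36 was not called in the 12 comparisons. VPS25, the subunit that contacts ESCRT-III, measured 56.7, 72.2, 90.1 and 73.0 rpm in NT and 91.4, 102, 115, 98.5 and 120 in siCTRL#1. It measured 133, 128, 152 and 140 rpm with siVPS4A+B#1 and 145, 112, 185 and 119 with siVPS4A+B#2. The siVPS4A+B#1 libraries lay above all NT and siCTRL#1 libraries, and 2 siVPS4A+B#2 libraries overlapped siCTRL#1. Against NT the log2 fold change was 0.93 ± 0.15 and 0.92 ± 0.15 (limma adjusted p = 3.3e-06 and 3.1e-06) but against siCTRL#1 it was 0.43 ± 0.15 and 0.42 ± 0.15 (0.019 and 0.017), short of the fold threshold. The VPS25 mean was 190% of the NT mean with siVPS4A+B#1 and 192% with siVPS4A+B#2. With single silencing it was 157% (siVPS4A#1), 120% (siVPS4A#2), 170% (siVPS4B#1) and 179% (siVPS4B#2). VPS25 itself was higher in siCTRL#1 than in NT, by 0.50 ± 0.15 (limma adjusted p = 0.014), and in siCTRL#2 than in NT, by 0.77 ± 0.15 (0.00012). SNF8, the other subunit, likewise differed between siCTRL#1 and NT, by 0.78 ± 0.20 (limma adjusted p = 0.0058), and was called lower with siVPS4A+B#1 against siCTRL#1 (-0.72 ± 0.20, adjusted p = 0.0047) while its value against NT was 0.06.

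ESCRT-III genes encode the filament subunits that VPS4 disassembles. Of the 12, CHMP1A, CHMP2A, CHMP4B, CHMP6, CHMP7 and IST1 were not called in any of the 12 comparisons, with log2 fold changes between -0.52 and 0.57. The median of the 12 against siCTRL#1 was 0.36 with siVPS4A+B#1, 0.38 with siVPS4A+B#2 and 0.28 with the second non-targeting duplex, siCTRL#2.

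CHMP1B, a late ESCRT-III subunit that recruits VPS4 and spastin, rose most. It measured 153, 126, 107 and 109 rpm in NT, and 108, 89.7, 76.7, 108 and 96.5 in siCTRL#1. It measured 284, 235, 215 and 261 rpm with siVPS4A+B#1 and 242, 209, 204 and 188 with siVPS4A+B#2. All 8 libraries with combined silencing lay above all 9 of these control libraries. With siVPS4A+B#1 the log2 fold change was 1.01 ± 0.14 against NT and 1.37 ± 0.13 against siCTRL#1 (limma adjusted p = 1.35e-07 and 1.18e-10), the latter a 2.58-fold rise. With siVPS4A+B#2 it was 0.77 ± 0.14 and 1.13 ± 0.13 (adjusted p = 1.38e-05 and 6.11e-09).

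Single silencing of either paralog gave mean CHMP1B levels between those of controls and pairs for 3 of the 4 duplexes, with ranges that overlapped NT. The mean was 167 ± 22 rpm with siVPS4A#1, 169 ± 25 with siVPS4B#1, 161 ± 43 with siVPS4B#2 and 99.2 ± 19 with siVPS4A#2 (SD, n = 4 each). In the same order, these levels exceeded siCTRL#1 by 0.81 ± 0.13, 0.81 ± 0.13, 0.71 ± 0.13 and 0.04 ± 0.13 on the log2 scale (limma adjusted p = 3.87e-06, 1.54e-05, 0.00032 and 0.98). Against NT they were 0.45, 0.46, 0.35 and -0.32, none of which reached the fold threshold. The pair exceeded the sum of its single effects by 0.51 ± 0.19 in siVPS4A+B#1 and differed from it by -0.39 ± 0.19 in siVPS4A+B#2 (limma adjusted p = 0.11 and 0.15), so that an interaction was not called. CHMP1B lies at chr18:11851412-11854443 on the plus strand of GRCh37, where its span overlaps that of GNAL on the same strand. The position of the panel amplicon was not checked, so whether GNAL transcripts could add reads was not tested.

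**Figure D2:**
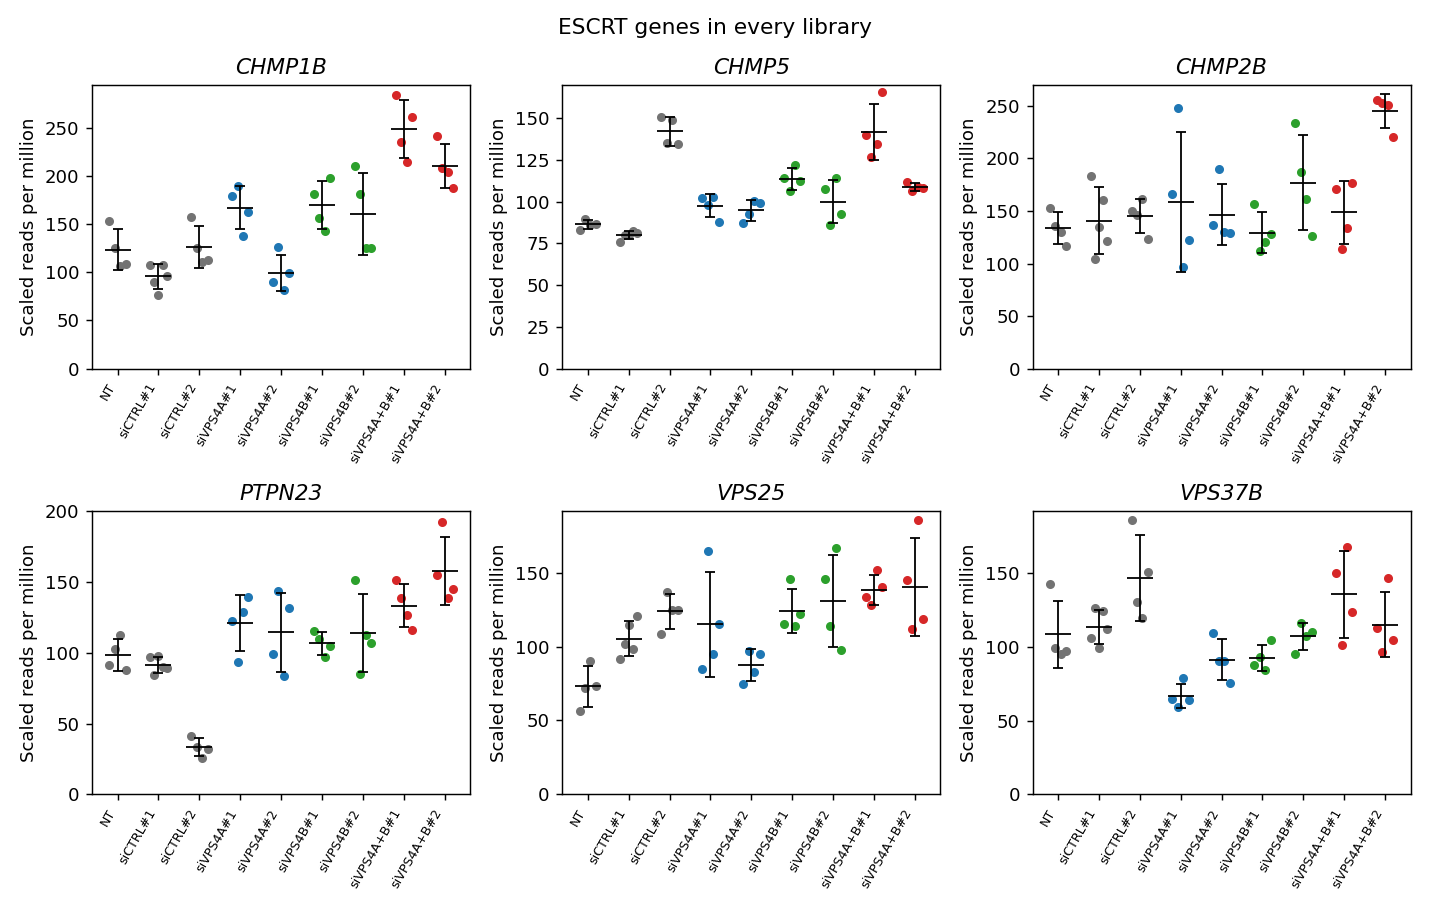
Scaled reads per 1000000 (rpm) of 6 ESCRT genes in every library used, by condition, with black bars for mean ± SD (controls grey, VPS4A silencing blue, VPS4B silencing green, combined silencing red). The combined-silencing libraries of CHMP1B lie between 188 and 284 rpm, above all NT and siCTRL#1 libraries (76.7 to 153 rpm).

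CHMP5, which binds the VPS4 cofactor encoded by VTA1, varied little between replicates. It measured 83.0 to 89.3 rpm in NT and 75.9 to 82.1 in siCTRL#1. It measured 140, 127, 135 and 165 rpm with siVPS4A+B#1 and 112, 106, 109 and 108 with siVPS4A+B#2. All of these libraries exceeded all NT and siCTRL#1 libraries. The CHMP5 mean was 178% of the siCTRL#1 mean with siVPS4A+B#1 and 136% with siVPS4A+B#2. With single silencing it was 142% (siVPS4B#1), 125% (siVPS4B#2), 122% (siVPS4A#1) and 119% (siVPS4A#2), so siVPS4B#1 alone lay above siVPS4A+B#2. The log2 fold change of CHMP5 was 0.70 ± 0.10 and 0.80 ± 0.10 with siVPS4A+B#1 (limma adjusted p = 7.57e-07 and 4.23e-08), and 0.33 ± 0.10 and 0.43 ± 0.10 with siVPS4A+B#2 (0.0089 and 0.00062), below the fold threshold. The non-targeting duplex siCTRL#2 gave a rise of the same size as siVPS4A+B#1, with 151, 135, 149 and 135 rpm and log2 fold changes of 0.71 and 0.81 (limma adjusted p = 1.03e-06 and 4.69e-08).

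CHMP2B, a subunit that caps and constricts filaments with CHMP2A, rose with siVPS4A+B#2, to 255.7, 253, 250.8 and 221 rpm, above all NT (117 to 153 rpm) and siCTRL#1 libraries (104 to 183 rpm). Its log2 fold change was 0.87 ± 0.18 against NT and 0.76 ± 0.17 against siCTRL#1 (limma adjusted p = 0.00011 and 0.00043). With siVPS4A+B#1 its log2 fold change was 0.14 and 0.03 and the libraries overlapped both controls. The difference between the pairs was -0.73 ± 0.18 (limma adjusted p = 0.0016). CHMP3 and CHMP4C moved between the controls themselves. They were lower in siCTRL#1 than in NT by 0.64 ± 0.17 and 0.69 ± 0.21 (limma adjusted p = 0.0062 and 0.019), so their calls depended on which control was used. CHMP4C, for example, was higher with siVPS4A+B#2 against siCTRL#1 by 0.89 ± 0.21 (adjusted p = 0.00066) while its value against NT was 0.19.

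Of the accessory genes, PDCD6IP, USP8, STAMBP and SPAST were not called in the 12 comparisons. CEP55, the midbody protein that brings ESCRT to the abscission site, fell furthest of all members. The gene lies at chr10:95256369-95288849 on the plus strand of GRCh37 and was listed by the coding transcript NM_001127182. It measured 60.1, 57.2, 73.3 and 64.9 rpm in NT and 53.0, 47.3, 65.9, 59.4 and 61.4 in siCTRL#1. It measured 22.9, 38.8, 43.8 and 34.7 rpm with siVPS4A+B#1 and 12.01, 13.02, 15.9 and 16.1 with siVPS4A+B#2. All 8 libraries lay below all 9 of these NT and siCTRL#1 libraries. With siCTRL#2 it measured 41.4, 51.8, 78.6 and 63.9 rpm. The lowest of these siCTRL#2 libraries lay below the highest siVPS4A+B#1 library. Its log2 fold change was -0.88 ± 0.15 and -0.75 ± 0.15 with siVPS4A+B#1 (limma adjusted p = 9.67e-06 and 9.29e-05) and -2.09 ± 0.15 and -1.96 ± 0.15 with siVPS4A+B#2 (1.69e-14 and 6.7e-14), against NT and siCTRL#1 respectively. Without replicate 1, CEP55 was no longer called in every one of the 4 comparisons, and the mean of its log2 values was -1.30 in place of -1.42.

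CEP55 was lower still with siVPS4A#1 alone, at 12.2, 9.03, 8.96 and 7.09 rpm, and not with siVPS4A#2, at 49.1, 51.4, 61.6 and 65.9 rpm. The log2 difference between these duplexes was -2.51 ± 0.16 (limma adjusted p = 2.18e-15). With siVPS4B#1 it measured 23.3, 26.0, 37.2 and 33.4 rpm and with siVPS4B#2 31.2, 32.4, 48.8 and 46.1. Against siCTRL#1 CEP55 changed by -0.95 ± 0.15 and -0.57 ± 0.15 on the log2 scale (limma adjusted p = 5.43e-06 and 0.0079), the second just short of the fold threshold. In siVPS4A+B#2 the level exceeded the sum of both single effects by 1.15 ± 0.21 (limma adjusted p = 9.31e-05), and in siVPS4A+B#1 by 0.24 ± 0.21 (0.59).

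CEP55 was measured beside a list of 13 genes of G2/M and cytokinesis. Of these, 9 were called lower in all 4 combined comparisons, where 4.16% of all genes were, and none higher. They were KIF23, RACGAP1, PLK1, AURKB, CCNB1, TOP2A, KIF20A, INCENP and BIRC5, with log2 fold changes against siCTRL#1 between -0.59 (KIF23) and -1.86 (KIF20A) with siVPS4A+B#1 and between -0.79 (KIF23) and -2.56 (KIF20A) with siVPS4A+B#2. The median of the 13 against siCTRL#1 was -2.06 with siVPS4A#1, 0.06 with siVPS4A#2, -1.05 with siVPS4B#1, -0.46 with siVPS4B#2, -0.89 with siVPS4A+B#1 and -1.30 with siVPS4A+B#2. Whether the CEP55 change goes with that of these genes was not tested. A CHR was found in 8 and a CCAAT box in 10 of the 11 list genes with a RefSeq promoter window. Of all windows, 9.53% held a CHR and 37.03% a CCAAT box. CEP55 holds both, while CHMP2B, the other member with a CHR, was called higher with siVPS4A+B#2. A link between these motifs and the levels was not tested.

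**Figure D3:**
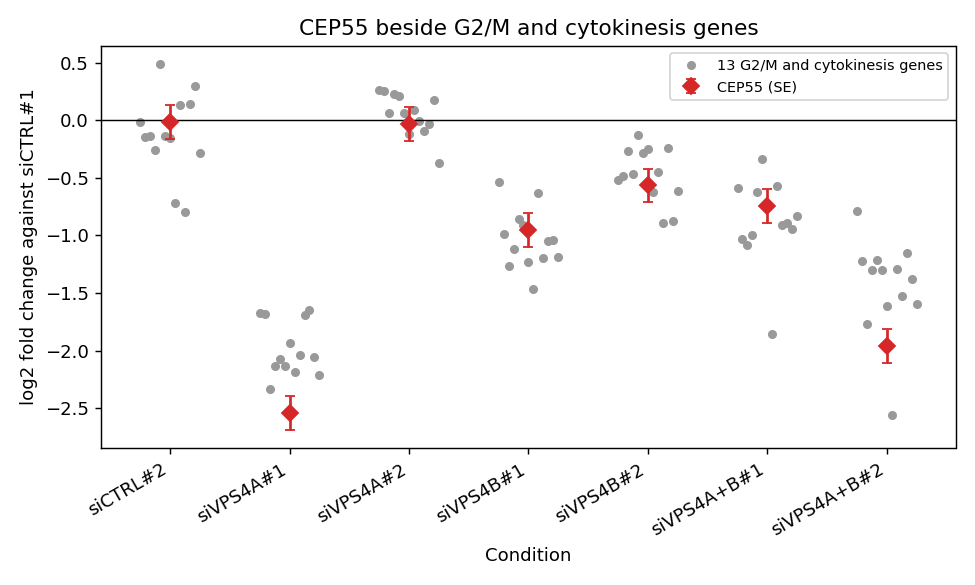
Log2 fold change against siCTRL#1 of CEP55 (red diamonds, bars of 1 SE) and of 13 G2/M and cytokinesis genes (grey points) in 7 conditions. CEP55 lies at -2.54 with siVPS4A#1 and at -0.04 with siVPS4A#2, where the medians of the grey points are -2.06 and 0.06.

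VTA1, the cofactor that stimulates VPS4, was low in both conditions that hold siVPS4A#1. The gene (NM_016485) lies at chr6:142468299-142545822 on the plus strand of GRCh37. It measured 22.5, 22.2, 20.5 and 16.7 rpm with siVPS4A#1 and 17.1, 17.7, 21.8 and 23.3 with siVPS4A+B#2. The NT libraries measured 49.4 to 59.6 rpm and the siCTRL#1 libraries 59.5 to 67.7. With siVPS4A#2 it measured 63.0, 60.7, 66.0 and 58.8 rpm and with siVPS4A+B#1 61.0, 75.9, 67.7 and 80.0. The mean was thus 32.8% and 32.0% of the siCTRL#1 mean in the conditions with siVPS4A#1, and 99.6% and 114% in those with siVPS4A#2. The log2 fold change against siCTRL#1 was -1.56 ± 0.11 with siVPS4A#1 and -1.64 ± 0.11 with siVPS4A+B#2 (limma adjusted p = 3.43e-14 and 8.55e-15). The difference between the VPS4A duplexes was -1.51 ± 0.12, and that of siVPS4A+B#1 from siVPS4A+B#2 was 1.79 ± 0.12 (limma adjusted p = 7.56e-13 and 4.23e-15).

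**Figure D4:**
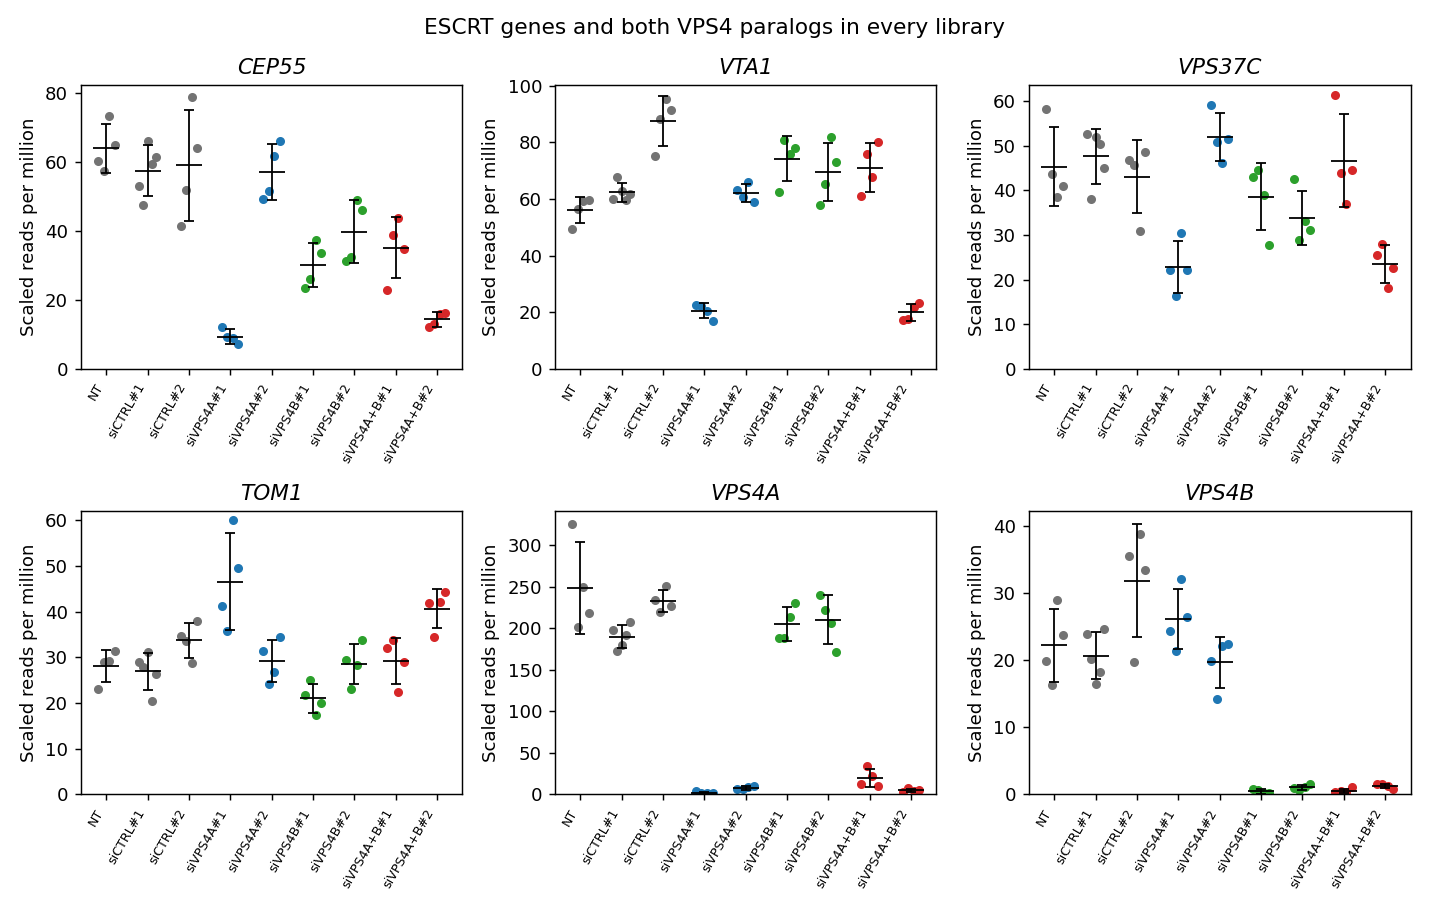
Scaled reads per 1000000 (rpm) of CEP55, VTA1, VPS37C and TOM1 and of both VPS4 paralogs in every library used, by condition, with black bars for mean ± SD (controls grey, VPS4A blue, VPS4B green, combined red). VTA1 and VPS37C are low in siVPS4A#1 and siVPS4A+B#2, at 16.3 to 30.5 rpm, while VPS4A is low in all 4 conditions that target it.

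PTPN23, a Bro1-domain protein that binds ESCRT-III, rose with both pairs. It measured 151, 139, 127 and 116 rpm with siVPS4A+B#1 and 155, 192, 139 and 145 with siVPS4A+B#2. The NT libraries lay at 87.7 to 112 rpm and the siCTRL#1 libraries at 84.2 to 97.5, below all 8. The PTPN23 mean was 146% of the siCTRL#1 mean with siVPS4A+B#1 and 172% with siVPS4A+B#2. With single silencing it was 132% (siVPS4A#1), 125% (siVPS4A#2), 117% (siVPS4B#1) and 124% (siVPS4B#2). Libraries of siVPS4A#1, siVPS4A#2 and siVPS4B#2 reached 139, 143 and 151 rpm, within the siVPS4A+B#1 range. With siVPS4A+B#2 the log2 fold change was 0.67 ± 0.15 against NT and 0.79 ± 0.15 against siCTRL#1 (limma adjusted p = 0.0004 and 2.88e-05). With siVPS4A+B#1 it was 0.43 and 0.56 (0.020 and 0.0028), under the fold threshold. With siCTRL#2 PTPN23 fell to 41.3, 33.6, 25.9 and 32.3 rpm, a log2 fold change of -1.55 ± 0.15 against NT and -1.43 ± 0.15 against siCTRL#1 (limma adjusted p = 1.71e-10 and 6.89e-10). LEMD2, which anchors ESCRT at the nuclear envelope, was called lower with siVPS4B#1 (-0.78 ± 0.14) and siVPS4A+B#1 (-0.66 ± 0.14) against siCTRL#1 (limma adjusted p = 4.4e-05 and 0.00021), but its values against NT were -0.58 and -0.46 and were not called.

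Counted by condition against both NT and siCTRL#1, siVPS4A#1 had 5 called members, TOM1 higher and VPS37B, VPS37C, VTA1 and CEP55 lower (14.6% of all genes). The siVPS4A#2 duplex had 0 (0.0317%), siVPS4B#1 had CEP55 (8.93%) and siVPS4B#2 had 0 (3.81%). The siVPS4A+B#1 pair had 3, CHMP1B and CHMP5 higher and CEP55 lower (14.7%), and siVPS4A+B#2 had 6, CHMP1B, CHMP2B and PTPN23 higher and VPS37C, VTA1 and CEP55 lower (19%). No member was called in all 4 comparisons of single VPS4A (0.00792%) or VPS4B silencing (1.12%). With the shallow library included, whose VTA1, VPS37C and CEP55 levels (61.5, 42.1 and 27.5 rpm) lay above those of all other siVPS4A#1 libraries, the siVPS4A#1 count was 3, as TOM1 and VPS37B were no longer called.

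In single comparisons, the counts of called members stood beside the share of all genes as follows. With siVPS4A#1 there were 6 against NT (25%) and 8 against siCTRL#1 (22%), and with siVPS4A#2 there were 4 (8.15%) and 0 (0.0871%). With siVPS4B#1 there were 4 (22.3%) and 3 (12.9%), and with siVPS4B#2 there were 3 (15.5%) and 1 (7.57%). The controls themselves differed in 3 members between siCTRL#1 and NT (9.05%), in 6 between siCTRL#2 and NT (16.6%) and in 3 between siCTRL#2 and siCTRL#1 (16.8%). Duplexes against the same target differed in 8 members for VPS4A (22.2%), 4 for VPS4B (15.1%) and 6 between the pairs (17.4%). An interaction was called for 1 member in siVPS4A+B#1 (6.2%) and for 2 in siVPS4A+B#2 (18.3%).

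Across the 12 comparisons 18 of the 37 members were never called, with log2 fold changes from -0.53 to 0.57, against 35.4% of all 12627 genes never called. EPS15, VPS37A and CHMP6 never passed the limma adjusted p at any fold, 3 of 37 members against 15.7% of all genes. The median SE of these estimates was 0.15. In a simulation of the combined comparisons 60% of genes changed 1.8-fold were recovered in all 4. That rate is for calls in all 4 at once, where changes of that size or smaller may have been missed. It does not give the rate at which a change would be missed in each of the 12 comparisons. The simulated reads held no differences between replicate numbers or between NT and siCTRL#1.

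Among 28 further genes that act beside ESCRT, such as adaptors, ubiquitin ligases and arrestin-domain proteins, 1 was called higher and 0 lower in all 4 combined comparisons, where 8.12% of all genes were called. This was ARRDC3, an arrestin-domain adaptor of ubiquitin ligases, at 30.1 ± 6.6 rpm with siVPS4A+B#1 and 22.4 ± 6.3 with siVPS4A+B#2, against 7.55 ± 2.2 in NT and 10.4 ± 2.9 in siCTRL#1 (SD). Its log2 fold change against siCTRL#1 was 1.59 ± 0.24 and 1.16 ± 0.24 (limma adjusted p = 1.55e-06 and 0.00014).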

How the data were processed

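Each deposited value is a signal that gives a gene's reads divided by the library's reads over all 12627 genes of the table. Per the paper's methods, the authors sequenced Ion AmpliSeq Transcriptome libraries on an Ion Proton, aligned the reads to the hg19 panel transcripts and counted them with HTSeq-count. The submitters' processing notes name HTSeq 0.6.0 and DESeq2 1.18.1. The step from counts to these shares is not given in the sources used here. The paper's methods name a minimum of reads and the removal of non-coding genes for its gene lists, and whether these define the deposited table is not stated. Shares are relative, so a large change of a few abundant genes shifts all others.

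Reads were recovered from the step of the low values. Of the values given finely enough to tell (48.4% of those above 0), 99.99% were whole within 0.1 read, although in 2 libraries the decimals alone could give whole reads. Symbols were found for 12474 identifiers. Reads were scaled to 1000000 with TMM factors (0.881 to 1.10; edgeR 4.0.16), 1 was added, and log2 values were fitted with limma 3.58.1 (R 4.3.3) with an intensity trend, 9 conditions and the replicate number, which the labels give as a batch, as a block. All libraries but siVPS4A#1 replicate 2 entered the fit. Libraries with the same number deviated together on average (mean r = 0.159 over 137 pairs, against -0.0754 over 529 others). This was uneven, with a mean r of 0.253 for number 1, 0.0634 for number 2, 0.281 for number 3 and 0.0144 for number 4. P-values were adjusted by Benjamini-Hochberg over all genes. SDs and SEs hold the spread between libraries.

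Members described in full were those called the same way in all 4 comparisons of a target, those called in both combined conditions or against both controls in at least 1 condition (siCTRL#2 included, a reading made after calls were seen), and the largest mean change of each subcomplex. SNF8, TSG101, CHMP3, CHMP4C and LEMD2 were named after their values were seen. The members, lists and motifs were chosen with earlier results of these data known. The fit was tested on simulated data with changes in the combined conditions only. All 4 combined comparisons together recovered 60% of 100 genes changed 1.8-fold and 100% of 100 changed 3-fold, with 0 wrong calls among 12427. Alternatives were edgeR's quasi-likelihood test and DESeq2 1.42.0 on the recovered reads, DESeq2 size factors, unscaled shares, a pseudocount of 0.1, a filter of 10 reads in 4 libraries, no block, the shallow library included, and each replicate number left out. Figures used matplotlib 3.10.9.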

Additional observations from a re-analysis of the deposited data

Results flagged for a closer look

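Within the sample groups of the 13 members described in full, 7 of 117 groups held a library far from the others of its condition, where chance gives about 1 in 20. In rpm these were VPS28 in siVPS4A+B#1 replicate 1 (128.0, others 66.2 to 76.2), VPS37B in NT replicate 1 (142.1), VPS37C in siCTRL#2 replicate 3 (30.92), UBAP1 in siVPS4A#1 replicate 4 (35.06) and in siVPS4A#2 replicate 3 (31.42), and CHMP2B in siVPS4A#2 replicate 2 (189.6) and in siVPS4A+B#2 replicate 4 (220.6).

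Several members differed between reagents against the same target (limma, Benjamini-Hochberg adjusted p under 0.05 and fold change of at least 1.5). Between siVPS4A#1 and siVPS4A#2 the log2 differences were 0.62 for TOM1, -1.17 for VPS37C, -0.67 for SNF8, 0.77 for CHMP1B, 0.63 for CHMP3, 0.69 for CHMP4C, -1.51 for VTA1 and -2.51 for CEP55. Between siVPS4A+B#1 and siVPS4A+B#2 they were 0.71 for STAM2, 0.60 for TSG101, 0.95 for VPS37C, -0.73 for CHMP2B, 1.79 for VTA1 and 1.21 for CEP55. Between siVPS4B#1 and siVPS4B#2 they were 0.84 for MVB12A, -0.62 for MVB12B, 0.85 for CHMP7 and -0.73 for LEMD2.

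The effect of the pair differed from the sum of both single effects for VPS37B, by 0.85 in siVPS4A+B#1 and 0.87 in siVPS4A+B#2, and for CEP55, by 1.15 in siVPS4A+B#2 (limma, Benjamini-Hochberg adjusted p under 0.05).

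The library left out of the comparisons, siVPS4A#1 replicate 2, held CHMP1B at 235 rpm on 145 reads, above the 76.7 to 153 rpm of the NT and siCTRL#1 libraries. It also held VTA1 at 61.5 rpm (other siVPS4A#1 libraries 16.7 to 22.5), VPS37C at 42.1 (16.3 to 30.5) and CEP55 at 27.5 (7.09 to 12.2), outside the range of its labelled condition, beside 7 reads of VPS4A and 1 of VPS4B. Whether it holds the condition on its label was not tested.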

How the results depend on the processing

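Of 130 recomputed counts of members 115 stayed within 1.5 times their value, and 290 of 299 values of named members kept their direction and side of the threshold. Without the replicate block, the counts were those given in the report (2 members changed by combined silencing in all 4 comparisons, 1 with an interaction in both pairs), and no call changed. With the deposited shares unscaled, which shifted the median of all genes by up to -0.14, CEP55 was called in all 4 comparisons of VPS4B silencing, so that this count and that of siVPS4B#2 against both controls became 1. The siVPS4B#1 count became 2, by LEMD2, with edgeR, with a pseudocount of 0.1 and with the filter on low reads, and the siVPS4A#1 count became 3 with the shallow library. Leaving out each replicate number in turn gave 1 to 2 members changed by combined silencing (CEP55 was lost without replicate 1), 0 to 1 by VPS4B silencing and with siVPS4B#2 (1 without replicate 3 or 4), 0 to 1 with an interaction (0 without replicate 3 or 4) and 1 to 2 with siVPS4B#1 (2 without replicate 1 or 3). The mean of VPS37B over the 4 combined comparisons, 0.16, ranged from -0.0093 without replicate 3 to 0.27 without replicate 2. Over all genes, 1025 were called in all 4 combined comparisons, and 1142 with edgeR on the recovered reads. An interaction in both pairs was called for 465 genes, and for 137 with the shallow library, 286 without replicate 1, 224 without replicate 3 and 276 without replicate 4. The cause of these changes was not tested. Depth limits VPS4B after silencing, at 1 to 16 reads, while each member had 29 or more.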
